A study of Mus musculus with 4 samples.

Results

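Ligands of the tumor necrosis factor (TNF) superfamily and their receptors were examined in mouse plantaris, taken from control and M-PDK1KO animals after sham surgery or synergistic muscle ablation. The genes were chosen by symbol, as the numbered Tnfsf and Tnfrsf genes together with Tnf, Lta, Ltb, Fas, Fasl, Cd40, Cd40lg, Cd27, Cd70, Ngfr, Eda2r and Edar, and 41 of the 22180 genes with a value met this rule (15 ligands and 26 receptors). Each of the 41 had 1 probe set on the array that named no other gene. Tnfsf12, which encodes TWEAK, and Tnfsf13, which encodes APRIL, share a probe set with each other and were not analysed here. Total RNA of male mice was hybridized to Affymetrix Mouse Gene 2.0 ST arrays 10 days after surgery, with 1 array for each of the 4 conditions. In M-PDK1KO mice, which carry homozygous floxed alleles of the PDK1 gene, Cre recombinase was driven by the promoter of myosin light chain 1f, so the deletion is aimed at skeletal muscle fibers. The control mice are wild type in the sample labels and in the methods for the arrays and flox/flox without Cre in the methods for the animals, and the mice had been backcrossed to C57/BL6. In the ablated mice the gastrocnemius and the soleus had been cut out on both sides, which loads the plantaris. The labels and the methods for the arrays give neither the age of these mice nor the number of mice behind an array.

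TNF superfamily ligands are mostly membrane proteins that act as trimers and can be shed from the cell surface, and their receptors share cysteine-rich repeats outside the cell. Some receptors carry a cytoplasmic death domain, which can recruit caspases, others bind TRAF adaptors that lead to nuclear factor kappa B (NF-kB), and decoy receptors bind a ligand without passing on its signal. In skeletal muscle, TNF and the TWEAK receptor Tnfrsf12a are known for their roles in regeneration and wasting, and most of the other ligands are known from lymphocytes, macrophages and bone.

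Pdpk1, the gene deleted, had log2 values of 6.81 and 6.85 on the sham and ablation arrays of control mice and of 5.96 and 6.23 on those of M-PDK1KO mice, so both M-PDK1KO arrays were lower. The sources used here do not say where its probes lie relative to the floxed part. Medians over all probe sets were between 2.66 and 2.69 on the 4 arrays, and all 10 genes on a list of myofiber markers, such as Acta1 and Ckm, were above the median of all genes on at least 1 array. That median, 3.23 over all genes and arrays, is used below only to say which genes had low values, since no detection call was analysed here. Markers that rose or fell with ablation are those called by the limma fit described below, which called 10.4% of all genes higher and 10.6% lower. The marker lists are short, so a count of 1 or 2 calls says little about a cell type. Of 10 macrophage markers, 8 were called higher and none lower. Their summed linear signal was 444 and 476 on the control and M-PDK1KO sham arrays and 2382 and 2447 on the ablation arrays. Of 7 fibroblast markers, 5 rose and 1 fell, with summed signals of 4318 and 4692 after sham surgery and 10072 and 10500 after ablation. Of 8 measured markers of T and NK cells, 2 rose (Cd4 and Cd3g), with summed signals of 41.4 and 39.7 after sham surgery and 49.8 and 49.1 after ablation. None of 5 measured markers of B and plasma cells and none of 6 of neutrophils was called. All of them were at or below the median of all genes on every array, as were the markers of T and NK cells apart from Cd4. At such low values these arrays cannot show that a marker was unchanged. Of 6 endothelial markers, Pecam1 and Cdh5 rose, and the other 4 were not called, with effects from -0.405 (Tek) to 0.348 (Emcn). Of 6 dendritic cell markers, Itgax and Ccr7 rose, the latter at or below the median of all genes on every array. The other 4 were not called, with effects from -0.248 (Siglech) to 0.004 (Flt3). Myofiber markers moved both ways, with 4 of 10 lower (Myh4, Ttn, Atp2a1 and Pvalb) and 2 higher (Myh1 and Myh2), and their summed signal was 47697 and 47145 on the sham arrays and 42232 and 41806 on the ablation arrays. The adipocyte markers Plin1 and Cidec, 2 of 4, fell. Of 6 satellite cell and myoblast markers, Myog and Mymk rose, with effects of 1.26 and 4.44, and the other 4 were not called. Of 4 measured Schwann cell markers, Mbp fell, Pmp22 rose and the other 2 were not called. None of 4 measured keratinocyte markers was called, but their summed signal was 74.6 on the M-PDK1KO sham array and 28.6 to 30.1 on the others, with Krt10 at 5.75 there against 3.64 to 3.99. Whole muscle was measured, so more cells of a type and more RNA per cell cannot be told apart, and the part of these cells in the results below was not tested.

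After ablation, 7 of the 26 receptors rose and 2 fell, and 3 of the 15 ligands rose and none fell. limma called 10 of the 41 genes higher (24.4%) and 2 lower (4.88%) over both genotypes, where 10.4% of all genes were called higher and 10.6% lower. The genes that rose were the receptors Tnfrsf23, Tnfrsf12a, Tnfrsf1b, Tnfrsf1a, Eda2r, Tnfrsf10b and Tnfrsf11a and the ligands Ltb, Tnfsf11 and Tnfsf13b, and those that fell were the receptors Cd27 and Tnfrsf19. A gene was called where the Benjamini-Hochberg adjusted p over all genes was under 0.05 in a fit of genotype plus ablation, which compares 2 sham with 2 ablation arrays and has 1 residual degree of freedom. The standard errors combine the difference between the responses of the genotypes with a spread that limma shares over all genes. The effects below are log2 differences of ablation over sham averaged over the genotypes, with SE. The median effect was 0.20 over the 41 genes and -0.02 over all genes. On 21 of the 41 genes (51.2%) both ablation arrays lay above both sham arrays and on 6 (14.6%) below them, against 26.6% and 30.8% of all genes.

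**Figure D1:**
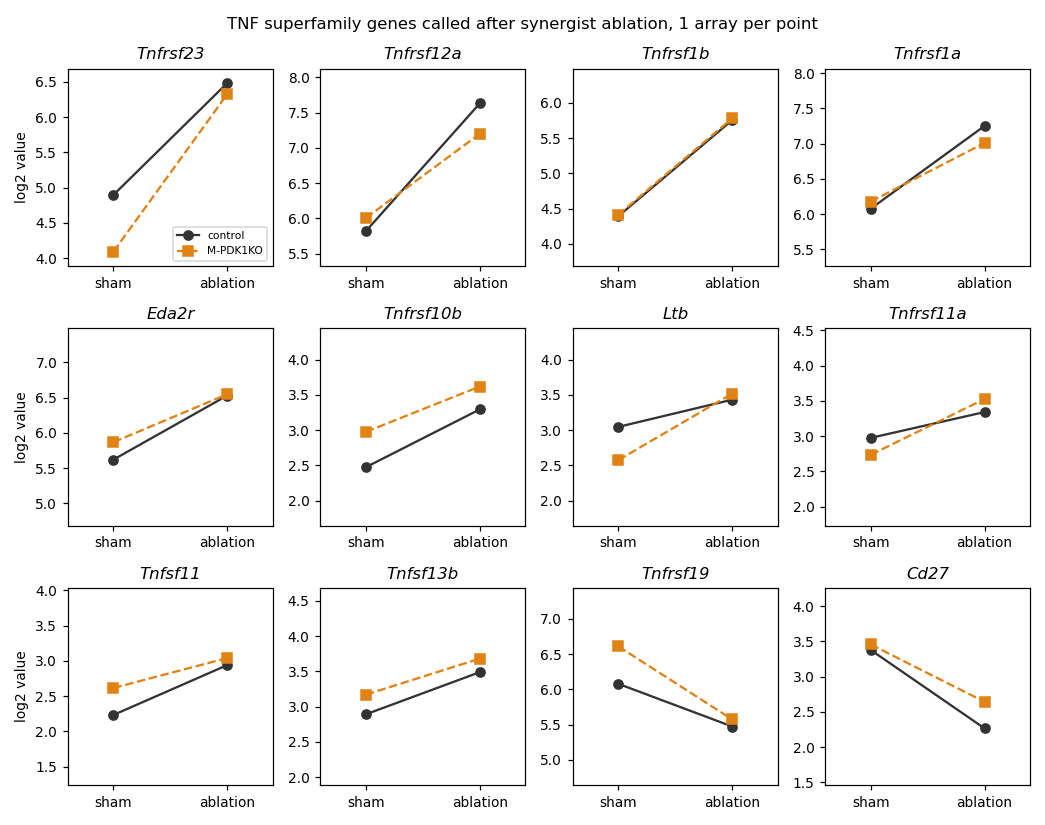
The log2 value (vertical axes, all spanning the same number of log2 units) on each of the 4 arrays for the 12 TNF superfamily genes called by limma, with sham and ablation on the horizontal axes; circles and solid lines are control, squares and dashed lines M-PDK1KO, and each point is 1 array. All 12 lines of each genotype slope the same way as in the other genotype, up for 10 genes and down for Tnfrsf19 and Cd27. The call favors genes whose genotypes respond alike, so this agreement follows largely from the selection.

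The promoters of 6 of these genes are shown because the genes moved together or apart, and they let the sequence be read beside the response. They belong to the receptors Tnfrsf23, Tnfrsf12a, Tnfrsf1b and Tnfrsf1a, with the largest rises, to Ltb, the ligand with the largest, and to Cd27, with the largest fall. Each line holds the 250 bases before the RefSeq start in build GRCm38.p6, 5′ to 3′ on the strand of the gene, and capitals mark matches on either strand to the GC box GGGCGG, to the AP-1 motif TGANTCA or to the NF-kB consensus.
Tnfrsf23, chr7:143685876-143686125, minus strand: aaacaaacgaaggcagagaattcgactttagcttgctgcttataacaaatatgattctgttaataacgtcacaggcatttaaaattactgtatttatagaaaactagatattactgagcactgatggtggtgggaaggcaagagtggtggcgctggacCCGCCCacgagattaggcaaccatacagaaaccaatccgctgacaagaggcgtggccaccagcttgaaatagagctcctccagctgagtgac
Tnfrsf12a, chr17:23677450-23677699, minus strand: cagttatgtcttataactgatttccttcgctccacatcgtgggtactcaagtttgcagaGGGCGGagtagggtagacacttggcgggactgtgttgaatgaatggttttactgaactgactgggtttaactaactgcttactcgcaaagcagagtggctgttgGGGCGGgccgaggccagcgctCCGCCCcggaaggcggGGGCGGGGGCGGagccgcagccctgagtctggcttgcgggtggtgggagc
Tnfrsf1b, chr4:145246871-145247120, minus strand: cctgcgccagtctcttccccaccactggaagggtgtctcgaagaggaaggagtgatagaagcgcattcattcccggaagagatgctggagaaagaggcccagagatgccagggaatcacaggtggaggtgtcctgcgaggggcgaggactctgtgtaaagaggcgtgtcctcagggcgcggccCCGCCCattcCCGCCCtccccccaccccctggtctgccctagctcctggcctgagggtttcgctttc
Tnfrsf1a, chr6:125349473-125349722, plus strand: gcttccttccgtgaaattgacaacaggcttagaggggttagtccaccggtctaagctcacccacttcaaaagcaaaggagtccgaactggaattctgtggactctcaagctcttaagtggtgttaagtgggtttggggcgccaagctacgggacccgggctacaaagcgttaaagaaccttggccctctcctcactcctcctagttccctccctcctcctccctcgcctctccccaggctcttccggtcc
Ltb, chr17:35194257-35194506, plus strand: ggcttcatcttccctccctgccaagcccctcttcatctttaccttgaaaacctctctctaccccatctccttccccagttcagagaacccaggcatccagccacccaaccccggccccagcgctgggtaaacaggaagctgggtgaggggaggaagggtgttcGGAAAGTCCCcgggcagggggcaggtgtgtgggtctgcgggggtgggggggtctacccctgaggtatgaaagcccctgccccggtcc
Cd27, chr6:125237028-125237277, minus strand: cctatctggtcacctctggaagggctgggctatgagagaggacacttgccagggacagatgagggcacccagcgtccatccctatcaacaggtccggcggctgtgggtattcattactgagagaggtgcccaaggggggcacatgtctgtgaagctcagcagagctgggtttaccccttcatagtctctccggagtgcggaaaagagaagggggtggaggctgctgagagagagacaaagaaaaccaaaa
In these 6 windows, Tnfrsf12a held 5 GC boxes, of which the nearest to the start began 44 bases before it, Tnfrsf1b held 2, at 67 and 57 bases before the start, and Tnfrsf23 held 1, at 92. Ltb held the 1 match to the NF-kB consensus, GGAAAGTCCC, beginning 87 bases before its start. The windows of Tnfrsf1a and Cd27 held no match to any of the 3 motifs, and none of the 6 held the AP-1 motif. RefSeq promoters were found by symbol for 32 of the 41 genes, of which 15 had a GC box in at least 1 entry, against 32.7% of all 32851 promoters of the same length. The NF-kB consensus was in 4 of the 32 (Ltb, Tnfrsf8, Tnfrsf9 and Tnfrsf25), against 7.25% of all promoters, and the AP-1 motif in 5 (Tnfsf13b, Tnfsf14, Fas, Tnfrsf8 and Tnfrsf9), against 6.75%. The shares of all promoters count entries, whereas the 32 were counted by gene and 4 of them had more than 1 entry, so the 2 are not like for like. Of the 9 genes called higher that had an entry, 5 had a GC box, 1 had the NF-kB consensus and 1 the AP-1 motif. Both strands were read, so a GC box and the NF-kB consensus could share bases, although none did in the windows shown.

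Among the ligands, 3 of 15 (20%) were called, all higher, where 21% of all genes were called in either direction and 10.4% higher. Ltb, the membrane-anchored chain of the lymphotoxin heterotrimer, had log2 values of 3.05 and 2.58 on the control and M-PDK1KO sham arrays and of 3.43 and 3.52 on the ablation arrays. The ablation arrays lay above the sham arrays, and the M-PDK1KO sham array was the lowest. Its effect was 0.66 ± 0.17, or 1.58-fold (limma, adjusted p = 0.0464). Tnfsf11 encodes RANKL, the ligand that drives osteoclast formation in bone, and its values were 2.23 and 2.61 after sham surgery and 2.94 and 3.04 after ablation. It was at or below the median of all genes on every array, with the control sham array the lowest, and its effect was 0.57 ± 0.13 (adjusted p = 0.0351). Tnfsf13b encodes BAFF, a survival factor of B cells that is made by myeloid cells. It had values of 2.89 and 3.17 after sham surgery and 3.49 and 3.68 after ablation, with an effect of 0.55 ± 0.11 (adjusted p = 0.0265). Ltb and Tnfsf13b lay above the median of all genes on the ablation arrays. The groups of sham and ablation arrays did not overlap for any of the 3, which the call itself makes likely.

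The other 12 ligands were at or below the median of all genes on all 4 arrays, with log2 values between 1.74 and 3.22, effects between -0.18 (Tnfsf10) and 0.37 (Tnfsf9) and adjusted p between 0.165 and 0.983. Tnf itself, the ligand of Tnfrsf1a and Tnfrsf1b, had values of 3.13 and 3.16 on the sham arrays and 3.17 and 2.99 on the ablation arrays, which overlapped. Its effect was -0.07 ± 0.12 (adjusted p = 0.778). Lta, which encodes lymphotoxin alpha and lies beside Tnf on chromosome 17, had 2.82 and 2.57 after sham surgery and 2.57 and 2.91 after ablation. Tnf also neighbors Ltb, so that 1 of these 3 adjacent ligand genes was called. Tnfsf10, which encodes TRAIL, a ligand that can start apoptosis, had 3.04 and 3.22 after sham surgery and 3.04 and 2.85 after ablation. The rest are Fasl, the ligand of Fas, and the lymphocyte ligands Tnfsf4, Tnfsf8, Tnfsf9, Tnfsf14, Tnfsf15, Tnfsf18, Cd40lg and Cd70. At such low values these arrays cannot show that a ligand was unchanged.

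**Figure D2:**
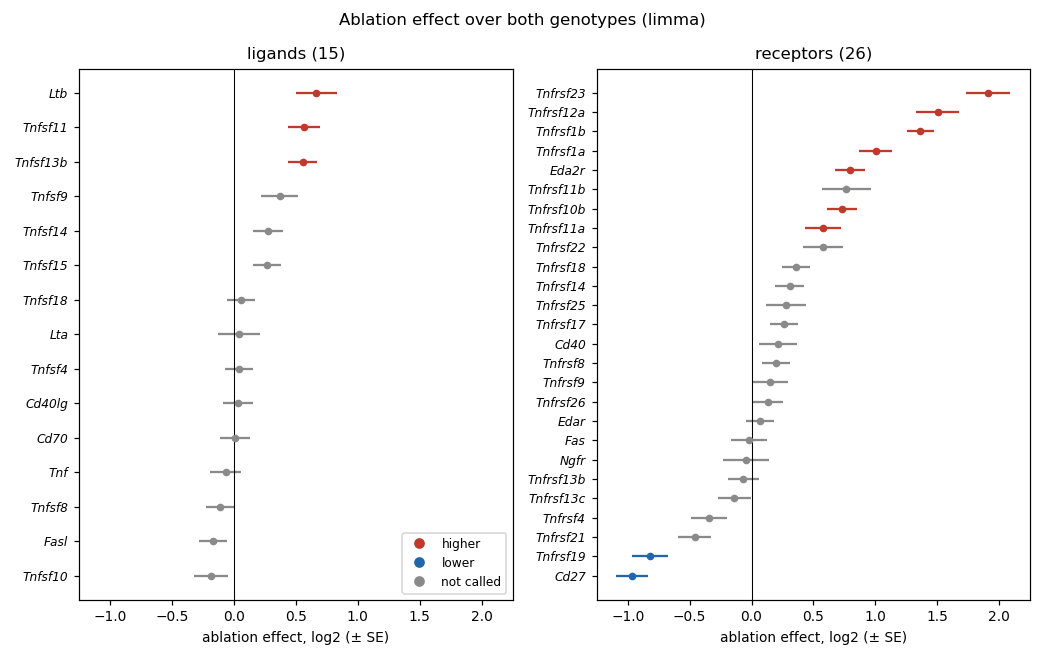
The ablation effect over both genotypes (horizontal axes, log2 of ablation over sham; bars are ± SE from limma, 2 sham and 2 ablation arrays) of the 15 ligands (left) and 26 receptors (right), in order of effect; red marks genes called higher, blue lower and gray not called. Receptor effects ran from -0.96 for Cd27 to 1.91 for Tnfrsf23, and those of ligands from -0.18 for Tnfsf10 to 0.66 for Ltb.

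Both receptors for TNF rose. Tnfrsf1a, which encodes TNF receptor 1, a death domain receptor found on most cells, had log2 values of 6.08 and 6.18 on the control and M-PDK1KO sham arrays and of 7.25 and 7.01 on the ablation arrays. Its effect was 1.0 ± 0.14, a 2.0-fold rise (limma, adjusted p = 0.00766), and the ratio of ablation to sham was 2.26 in control mice against 1.78 in M-PDK1KO mice. Tnfrsf1b encodes TNF receptor 2, which lacks a death domain and is most abundant on immune and endothelial cells. Its values were nearly the same in the genotypes, 4.39 and 4.41 after sham surgery and 5.76 and 5.78 after ablation. The effect was 1.36 ± 0.11, or 2.58-fold (adjusted p = 0.00214), and the responses of the genotypes differed by 0.01. Tnfrsf8 (CD30), the gene next to Tnfrsf1b on chromosome 4, had an effect of 0.20 ± 0.11 and was not called.

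Tnfrsf12a, which encodes Fn14, the receptor for TWEAK and a gene known to be induced by growth factors and injury, had values of 5.82 and 6.01 after sham surgery and 7.63 and 7.20 after ablation. Both ablation arrays were more than 1 log2 unit above either sham array, and the control ablation array was the highest. The effect was 1.5 ± 0.18, or 2.83-fold (limma, adjusted p = 0.00514), with ratios of 3.51 in control mice and 2.29 in M-PDK1KO mice.

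The signaling receptors of TRAIL and of RANKL rose, as did 1 of the 4 receptors listed as decoys or as lacking a signaling tail. That gene, Tnfrsf23, which encodes a mouse decoy receptor for TRAIL, had the largest effect in the family. Its values were 4.90 and 4.09 after sham surgery and 6.49 and 6.33 after ablation, so that the genotypes lay closer after ablation than after sham surgery. The effect was 1.91 ± 0.18, or 3.76-fold (limma, adjusted p = 0.00301). Tnfrsf22, the adjacent gene on chromosome 7 and also a decoy receptor for TRAIL, had 2.71 and 2.88 after sham surgery and 3.56 and 3.18 after ablation, with an effect of 0.58 ± 0.16 that did not pass the threshold (adjusted p = 0.0656). Tnfrsf26, the third gene of this cluster, had an effect of 0.14 ± 0.12. These genes are close relatives, and whether their probes bind each other's RNA was not tested. Tnfrsf10b, the mouse death domain receptor for TRAIL, had 2.48 and 2.98 after sham surgery and 3.30 and 3.62 after ablation. Its sham and ablation arrays did not overlap, and the effect was 0.73 ± 0.12 (adjusted p = 0.0134).

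Tnfrsf11a encodes RANK, the receptor for RANKL, and its values were 2.97 and 2.73 after sham surgery and 3.34 and 3.53 after ablation. The effect of 0.58 ± 0.15 lay just inside the threshold (limma, adjusted p = 0.0479) and was not called when limma used a trend in the variance (adjusted p = 0.0531). Tnfrsf11b encodes osteoprotegerin, a secreted decoy for RANKL and TRAIL, and had 3.03 and 3.36 after sham surgery and 4.17 and 3.74 after ablation. Its effect of 0.77 ± 0.20 lay just outside the threshold (adjusted p = 0.0526), although it was larger than that of Tnfrsf11a, and the SE was also larger because the genotypes were less alike, with ratios of 2.21 in control mice and 1.31 in M-PDK1KO mice. Under 5 of 6 other settings of the analysis Tnfrsf11b was called higher.

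The remaining gene that rose was Eda2r, an X-linked receptor for the A2 form of ectodysplasin that is also a p53 target. It had 5.62 and 5.87 after sham surgery and 6.53 and 6.55 after ablation, with an effect of 0.79 ± 0.12, or 1.73-fold (limma, adjusted p = 0.0115). Edar, the receptor for the A1 form of ectodysplasin, was at or below the median of all genes on every array, with an effect of 0.07 ± 0.11. Eda, the gene for both ligand forms, had an effect of 0.10 ± 0.11 (adjusted p = 0.623).

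Cd27 and Tnfrsf19 fell. Cd27 encodes a costimulatory receptor of T cells that binds CD70, and its log2 values were 3.38 and 3.46 after sham surgery and 2.27 and 2.64 after ablation. The sham arrays lay just above the median of all genes and the ablation arrays below it, with an effect of -0.96 ± 0.13, or 0.513-fold (limma, adjusted p = 0.00774). Of the 8 measured markers of T and NK cells, Cd4 and Cd3g rose in the same comparison, with effects of 0.80 ± 0.11 and 0.66 ± 0.12. The other 6 were not called, with effects of 0.28 for Cd8a, 0.22 for Cd3e, 0.18 for Ncr1, 0.10 for Cd3d, -0.09 for Klrb1c and -0.21 for Foxp3. These 6 were at or below the median of all genes on every array, so a lack of change cannot be read from them. Cd27 lies 3 protein-coding genes from Tnfrsf1a on chromosome 6, which rose. Tnfrsf19 encodes TROY, known as a partner of the Nogo receptor on neurons. It had 6.08 and 6.61 after sham surgery and 5.47 and 5.57 after ablation, with an effect of -0.82 ± 0.15, or 0.566-fold (adjusted p = 0.0174). The M-PDK1KO sham array was the highest, and the ratio of ablation to sham was 0.657 in control and 0.488 in M-PDK1KO mice. That array also had the highest summed signal of keratinocyte markers, and their part in this result was not tested.

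Among the other receptors above the median of all genes, Tnfrsf21 (death receptor 6) had 6.72 and 6.47 after sham surgery and 6.09 and 6.18 after ablation. Both ablation arrays were lower than both sham arrays, and the effect of -0.46 ± 0.13 did not pass the threshold (limma, adjusted p = 0.0716), although it did under 3 of 6 other settings. Tnfrsf4 (OX40), a costimulatory receptor of T cells, had an effect of -0.35 ± 0.15 (adjusted p = 0.176), and its neighbor Tnfrsf18 (GITR), which regulatory T cells express, of 0.36 ± 0.11 (adjusted p = 0.0887). Fas, the death receptor for Fas ligand, had overlapping values of 4.48 and 4.16 after sham surgery and 4.26 and 4.34 after ablation. Tnfrsf13c, the receptor of B cells for BAFF, had 4.09 on both sham arrays and 3.77 and 4.12 on the control and M-PDK1KO ablation arrays. Ngfr, the low-affinity neurotrophin receptor of Schwann cells and neurons, had 3.66 and 3.57 after sham surgery and 3.94 and 3.20 after ablation, and its effect was -0.04 ± 0.18. The lowest and the highest value of Ngfr were therefore both on ablation arrays. The 9 receptors at or below the median on every array were Cd40, Edar, Tnfrsf8, Tnfrsf9, Tnfrsf13b, Tnfrsf14, Tnfrsf17, Tnfrsf25 and Tnfrsf26, with values between 1.88 and 3.16 and adjusted p between 0.135 and 0.789.

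By the cutoffs of 2- and 0.5-fold that the study used, 5 of the 41 genes were at least 2-fold higher after ablation in control mice (12.2%, against 4.49% of all genes) and 3 in M-PDK1KO mice (7.32%, against 4.77%). The 3 were Tnfrsf23, Tnfrsf12a and Tnfrsf1b, and the control mice had Tnfrsf1a and Tnfrsf11b in addition. At most 0.5-fold were Cd27 in control mice, 1 gene against 2.54% of all genes, and Tnfrsf19 in M-PDK1KO mice, 1 against 2.71%. Each of these comparisons has 1 array a condition and no test.

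**Figure D3:**
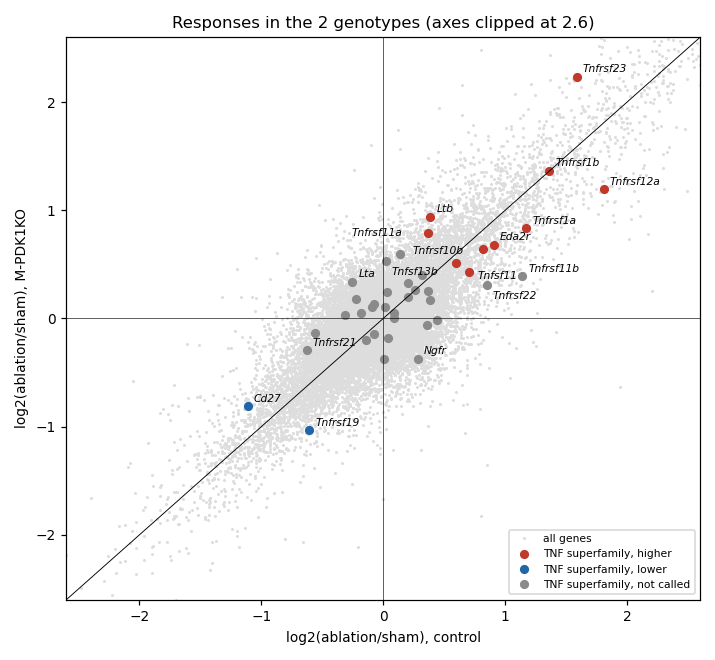
The response log2(ablation/sham) in control mice (horizontal axis) against that in M-PDK1KO mice (vertical axis), each from 1 array against 1, for the 41 TNF superfamily genes (large points) and all genes (small light gray points); the diagonal marks equal responses and the axes are clipped. Tnfrsf23 lies above the diagonal at 1.59 and 2.23, Tnfrsf12a below it at 1.81 and 1.19, and Tnfrsf1b on it at 1.36 and 1.37.

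None of the 41 genes differed 2-fold between the genotypes, either after sham surgery, where 0.162% of all genes did, or after ablation, where 0.14% did. At such shares most sets of 41 genes would hold none, so this count says little about the family. The log2(M-PDK1KO/control) ran from -0.80 (Tnfrsf23) to 0.53 (Tnfrsf19) after sham surgery, with a median of 0.03. After ablation it ran from -0.74 (Ngfr) to 0.47 (Cd70), with a median of 0.05. Its SD after sham surgery was 0.27 over the 41 genes and 0.24 over all genes, and after ablation 0.27 and 0.23. The largest differences of response, in M-PDK1KO minus control mice, were -0.75 for Tnfrsf11b, -0.66 for Ngfr, 0.65 for Tnfrsf23 and -0.62 for Tnfrsf12a, against an SD of 0.32 over all genes, and none of the 41 reached 2-fold (0.762% of all genes). Of the 10 genes that rose, 6 had the larger response in control mice, which is near an even split. The median difference of response was -0.009 over the 41 genes and 0.006 over all genes. The responses had the same sign in both genotypes in 29 of the 41 genes and opposite signs in 12, against 30.5% of all genes with opposite signs. For the term of genotype in limma, which joins both surgeries, no member and none of the 22180 genes had an adjusted p under 0.05, Pdpk1 included. At an unadjusted p under 0.05 there were 3 members (Tnfrsf10b, Cd70 and Tnfrsf23) and 1208 of all genes.

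Of 90 measured genes on 7 lists of related genes, 27 rose (30%) and 9 fell (10%), against 10.4% and 10.6% of all genes, and 13 of the 27 were on the list of inducible targets. Of the 90, 79 were above the median of all genes on at least 1 array, against 54.2% of all genes, so these shares are not like for like. When only the 12018 genes above it on at least 1 array were tested, limma called 2501 higher and 2737 lower, among them 29 and 11 of these 79. Some listed genes, such as Il1b and Ptgs2, passed this filter only through the ablation arrays. The filter therefore depends in part on the response and does not make the shares like for like. Of 12 measured adaptors and TRAFs, Traf7 rose (0.51 ± 0.12), which is 8.33% of them, and none fell, and Traf2 had an effect of -0.47 ± 0.13 (limma, adjusted p = 0.0608) and Tradd, the adaptor of Tnfrsf1a, of 0.41 ± 0.12 (adjusted p = 0.0683). Of 12 genes of death signaling, 3 rose and 1 fell. Casp8, the caspase that death receptors recruit, had values of 4.80 and 5.22 after sham surgery and 6.45 and 6.74 after ablation. Its effect was 1.58 ± 0.12, or 3.0-fold (adjusted p = 0.0016). Ripk3 and its substrate Mlkl, the kinase and the pore-forming protein of necroptosis, rose by 1.10 ± 0.21 and 1.07 ± 0.21, whereas Diablo, a mitochondrial antagonist of apoptosis inhibitors, fell by 0.74. The ratio of ablation to sham was 2.86 in control and 1.61 in M-PDK1KO mice for Ripk3, and 1.59 and 2.76 for Mlkl.

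Of 11 genes for NF-kB kinases and factors, Nfkb2 and Rela rose by 0.91 ± 0.13 and 0.81 ± 0.13, and Tab1, Tab2 and Tab3, which encode partners of the kinase TAK1, fell by 0.54, 1.12 and 1.05. That is 18.2% higher and 27.3% lower, against 10.4% and 10.6% of all genes. Of 15 ubiquitin editors and NF-kB inhibitors, 4 rose (26.7%) and 2 fell (13.3%). All 11 genes of the first list and 14 of these 15 were above the median of all genes on at least 1 array, so the shares are not like for like. Bcl3 rose by 1.48 ± 0.17, Otulin, which removes linear ubiquitin chains, by 1.18 ± 0.15, Tnfaip3, which encodes the ubiquitin editor A20, by 0.91 ± 0.12 and Nfkbie by 0.89 ± 0.22. Sharpin, a subunit of the ligase that makes linear chains, fell by 0.65, and Tnip1, a partner of A20, by 0.51. Nfkbia, the main inhibitor of NF-kB, had an effect of -0.06 ± 0.12 (limma, adjusted p = 0.789).

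Among 7 sheddases and their regulators, Adam10, Rhbdf1 and Adam17, the protease that releases TNF, rose by 0.94 ± 0.11, 0.77 ± 0.12 and 0.63 ± 0.12. Rhbdf2, which encodes a carrier of ADAM17, fell by 0.95. So 42.9% of this list rose and 14.3% fell, against 10.4% and 10.6% of all genes. All 7 were above the median of all genes on at least 1 array, so these shares are not like for like. Of 4 measured relatives of the family outside the symbol rule, Rell1 rose by 0.89 ± 0.12, and Ltbr, the receptor for lymphotoxin, had an effect of 0.24 ± 0.11 (limma, adjusted p = 0.222). Of 29 measured genes known to be induced by TNF and NF-kB, 13 rose (44.8%) and 2 fell (6.9%), with a median effect of 0.52. Of these 29, 25 were above the median of all genes on at least 1 array. The hyaluronan-binding protein gene Tnfaip6 rose by 3.09 ± 0.18, the cyclooxygenase gene Ptgs2 by 2.85 ± 0.12, the chemokine gene Ccl7 by 2.41 ± 0.11 and Il1b by 2.19 ± 0.21. Ier3 rose by 1.93 ± 0.21, and the chemokine genes Ccl5 and Ccl2 by 1.79 ± 0.12 and 1.49 ± 0.21. The adhesion genes Vcam1, Icam1 and Sele rose by 1.17 ± 0.12, 0.90 ± 0.11 and 0.73 ± 0.18, the peptide transporter gene Tap1 by 0.99 ± 0.15, Csf1, the growth factor of macrophages, by 0.83 ± 0.12 and Gadd45b by 0.68 ± 0.13, whereas Sod2, the mitochondrial superoxide dismutase, fell by 1.08 and Tnfaip2 by 0.68. After ablation Il1b was 1.14 log2 units higher in M-PDK1KO than in control mice (4.90 against 3.76), and after sham surgery Tap1 was 1.07 higher. No other gene of this list differed 2-fold between the genotypes within a surgery, and with 1 array a condition these differences were not tested. Many genes of this last list also respond to other signals, and macrophage markers rose in the same arrays. On the 7 lists, 9 more genes, among them Traf3, Ripk1 and Nfkb1, had no value of their own in the annotation used here.

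**Figure D4:**
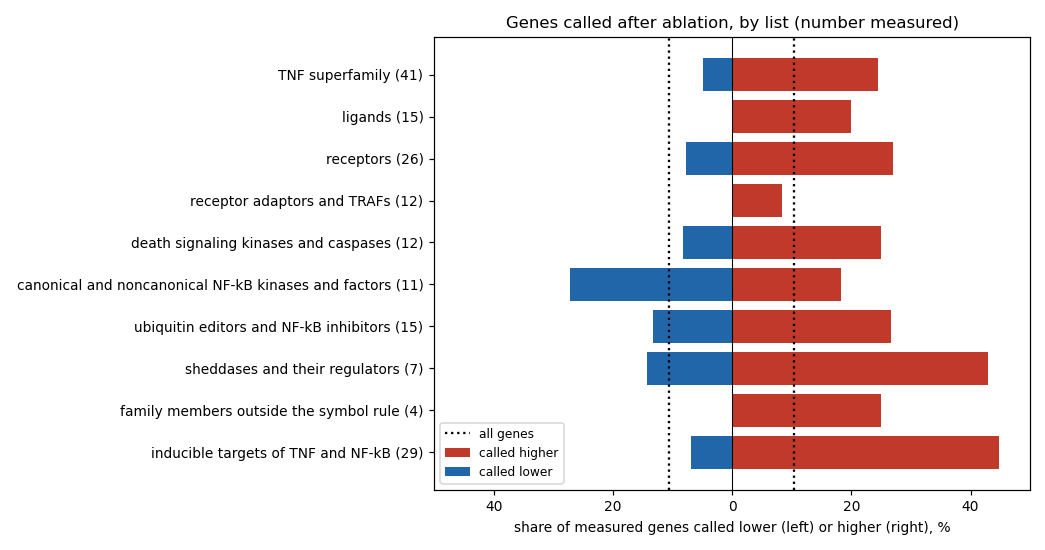
The share of measured genes called by limma after ablation (horizontal axis, percent; red to the right, called higher; blue to the left, called lower) for the TNF superfamily, its ligands and receptors, and the 7 lists of related genes, with the number measured in parentheses; dotted lines are the shares of all genes, 10.4% higher and 10.6% lower. The inducible targets of TNF and NF-kB had 13 of 29 genes higher, and the NF-kB kinases and factors had 3 of 11 lower. The shares of all genes include many genes with low values, whereas 79 of the 90 genes on the 7 lists were above the median of all genes on at least 1 array.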

How the data were processed

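The authors deposited log2 values, 1 per probe set and array, for 4 Affymetrix Mouse Gene 2.0 ST arrays (1 per condition). That the scale is log2 was read from their range, and the software named is Transcriptome Viewer; background correction, summarization and normalization are not given in the sources used here. Of 41345 probe sets, 23521 named exactly 1 gene in the platform annotation, and of several probe sets of a gene the one with the highest mean was used. The number of arrays limits the precision.

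A linear model with the terms genotype and ablation was fitted to the log2 values of all 22180 genes with limma 3.58.1 in R 4.3.3 (eBayes, Benjamini-Hochberg adjustment). The code was tested on simulated arrays. Python 3.11.15 with pandas 2.3.3 was used for the tables and matplotlib 3.10.9 for the plots. Since each group is 1 array, p-values rest on the spread between these arrays and on a variance shared over all genes, and both may be technical. Every called gene was named with its values, as was every uncalled receptor above the median of all genes with its values or effect; the other genes were given as ranges, apart from Tnf, Lta, Tnfsf10, Tnfrsf8, Tnfrsf26 and Edar, singled out, after their values were seen, beside their receptors, ligands or neighbors. From the lists of related genes, every called gene was named, and some others by role after their values were seen. The members, lists and motifs were chosen with earlier results of these data known. The alternatives were quantile normalization, median centring, averaging the probe sets of each gene, a filter on low values, limma with a trend or with ablation only, an adjusted p under 0.10 and a 1.5-fold cutoff. Protein sequences, planned for some genes, were not used here.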

Additional observations from a re-analysis of the deposited data

Results flagged for a closer look

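The responses to ablation had opposite signs in the genotypes for 12 of the 41 genes (29.3%), against 30.5% of all genes, and these differences were not tested, since each condition has 1 array. Subtracting the control response from the M-PDK1KO response gave -0.66 for Ngfr, -0.46 for Cd40, -0.42 for Tnfrsf9, -0.38 for Tnfsf10, -0.22 for Tnf and -0.085 for Tnfsf4. On the other side the subtraction gave 0.59 for Lta, 0.40 for Fas, 0.35 for Tnfrsf13c, 0.23 for Tnfrsf13b, 0.21 for Cd40lg and 0.20 for Cd70. Of these genes, Ngfr, Fas and Tnfrsf13c were above the median of all genes on at least 1 array.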

How the results depend on the processing

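The count of TNF superfamily genes called higher was 10 to 13 over the 7 alternatives with a test, and that of genes called lower 2 or 3. Over all genes these counts were 2271 to 2971 higher and 2318 to 3247 lower. The filter on low values left 12018 genes to test, of which 2501 were called higher and 2737 lower, so the shares of 10.4% and 10.6% do not apply there. All 12 called genes remained called under quantile normalization, median centring and ablation as the only term. The mean of probe sets also kept the 12, but it left their values unchanged, since each has 1 probe set. An adjusted p under 0.10 can only add calls. Tnfrsf11a was not called with a trend in limma, and Tnfsf11 was left out by the filter on low values. The effects of the 41 genes and of 62 of the related and marker genes named here were recomputed. The sign changed for Cd70 alone, which was near 0 and became -0.0077 with median centring. The filter, the trend and ablation as the only term cannot change an effect, since each genotype has 1 sham and 1 ablation array. The mean of probe sets cannot change it for the 41 genes, so for these only quantile normalization and median centring could alter a sign. Tap1 (adjusted p = 0.0928) and Tnfaip2 (adjusted p = 0.073) were not called with ablation as the only term in limma, nor was Atp2a1 after quantile normalization (adjusted p = 0.0737). With a cutoff of 1.5-fold in place of 2-fold, 10 genes were higher and 3 lower in control mice, and 9 higher and 2 lower in M-PDK1KO mice. Genotype differences reached the cutoff in 1 gene after sham surgery, 2 after ablation and 5 for the responses. The shares of all genes at 1.5-fold were not computed, so whether these counts pass the general level cannot be read. Of the related genes on the 7 lists, 36 were called in all. No paired analysis was possible because each group has 1 array, and leaving out an array leaves the model no residual degrees of freedom. Low values limit what can be read for most ligands.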
